A study of Mus musculus with 12 samples.

Results

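Cell cycle and proliferation genes were followed across 12 mouse kidney libraries: 43 genes of the 45777 in the deposited expression table, chosen by gene symbol as a standard list. They were split by textbook phase into 17 G1/S genes, which act in cell cycle entry, nucleotide supply and DNA replication, and 26 G2/M genes, which act in chromosome condensation, mitotic entry, spindle assembly and cytokinesis. All 43 passed the filter on low counts that left 18730 genes for testing, with a lowest single count of 7 (Melk in EV400 library 3). Male C57BL/6 wild-type mice were used throughout, with 3 libraries in each of 4 groups. The PBS group received cisplatin, a DNA-crosslinking platinum drug that injures the renal tubule, at 9 mg/kg intraperitoneally once a week for 5 cycles, and then 5 intravenous injections of phosphate-buffered saline 3 days apart. The EV200 and EV400 groups received the same cisplatin course and then 5 injections of 200 or 400 µg of extracellular vesicles from iMSC, the labels' abbreviation for the source cells. The normal group received neither cisplatin nor vesicles and is listed without intravenous injections, so that cisplatin and the injections cannot be told apart in comparisons with it. Kidneys were taken 3 days after the last treatment. The labels call the 3 libraries of a group biological replicates without naming the animals, and p-values measure the spread between these libraries.

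As a cell commits to division, cyclin D and cyclin E with their kinases phosphorylate the retinoblastoma protein, and released E2F factors switch on genes for nucleotides, replication licensing and DNA synthesis. Genes for mitosis follow in G2 through the MuvB complex with B-MYB and FOXM1. Cells of the healthy adult kidney rarely divide, whereas tubular cells, fibroblasts and leukocytes can enter the cycle after injury. In bulk RNA, a smaller number of cells of a type and less RNA per cell cannot be told apart.

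Total counts were 46.6 to 62.09 M per library. Proximal tubule markers such as Lrp2 and Slc34a1 summed to 27370 CPM or more in every library. CPM here is the read count scaled to counts per M of the library's total times its TMM scaling factor, and serves to compare 1 gene between libraries, whereas the authors' TPM, which is per length, serves to compare genes. No pair of libraries had identical counts.

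Most members were scarce transcripts. The median over the G2/M genes of the group mean was 1.06 TPM in PBS kidneys, 1.04 TPM in EV200, 0.649 TPM in EV400 and 0.705 TPM in normal kidneys. A mean under 1 TPM was found for 8, 13, 20 and 18 of the 26 genes in PBS, EV200, EV400 and normal kidneys. The G1/S genes were more abundant, with a median of 4.41 TPM in PBS, 4.4 TPM in EV200, 3.85 TPM in EV400 and 3.4 TPM in normal kidneys. Ccnd1, the gene for cyclin D1, was the most abundant G1/S gene in each group at 102, 110, 107 and 114 TPM in PBS, EV200, EV400 and normal kidneys. Cdc6, a licensing factor that loads the replicative helicase, was the least abundant at 0.32, 0.28, 0.13 and 0.0813 TPM in the same order. These TPM values compare genes within a group and do not measure differences between groups, for which CPM serves. Mcm6, for example, had a mean of 16.6 TPM in PBS and 15 TPM in normal kidneys, but 26.9 and 27.9 CPM.

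The G2/M genes varied widely between libraries of the same group. Each gene was expressed as its CPM over its mean CPM in normal kidneys, and the median over the class was taken in each library. For G2/M genes this median was 1.21-fold, 2.05-fold and 1.32-fold in PBS libraries 1, 2 and 3. It was 1.04-fold, 0.815-fold and 2.06-fold in EV200 libraries 1, 2 and 3. In the EV400 libraries it was 0.819-fold, 1.05-fold and 0.73-fold, against 0.888-fold, 1.15-fold and 0.963-fold in the normal libraries. PBS 2 and EV200 3 thus stood apart, each with 25 of 26 G2/M genes above the normal mean. The other 10 libraries, all EV400 and normal libraries among them, lay below both. Summed over the class, G2/M transcripts reached 97.68 CPM in PBS 2 and 81.01 CPM in EV200 3, and 33.66 to 55.39 CPM in the other 10 libraries.

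**Figure D1:**
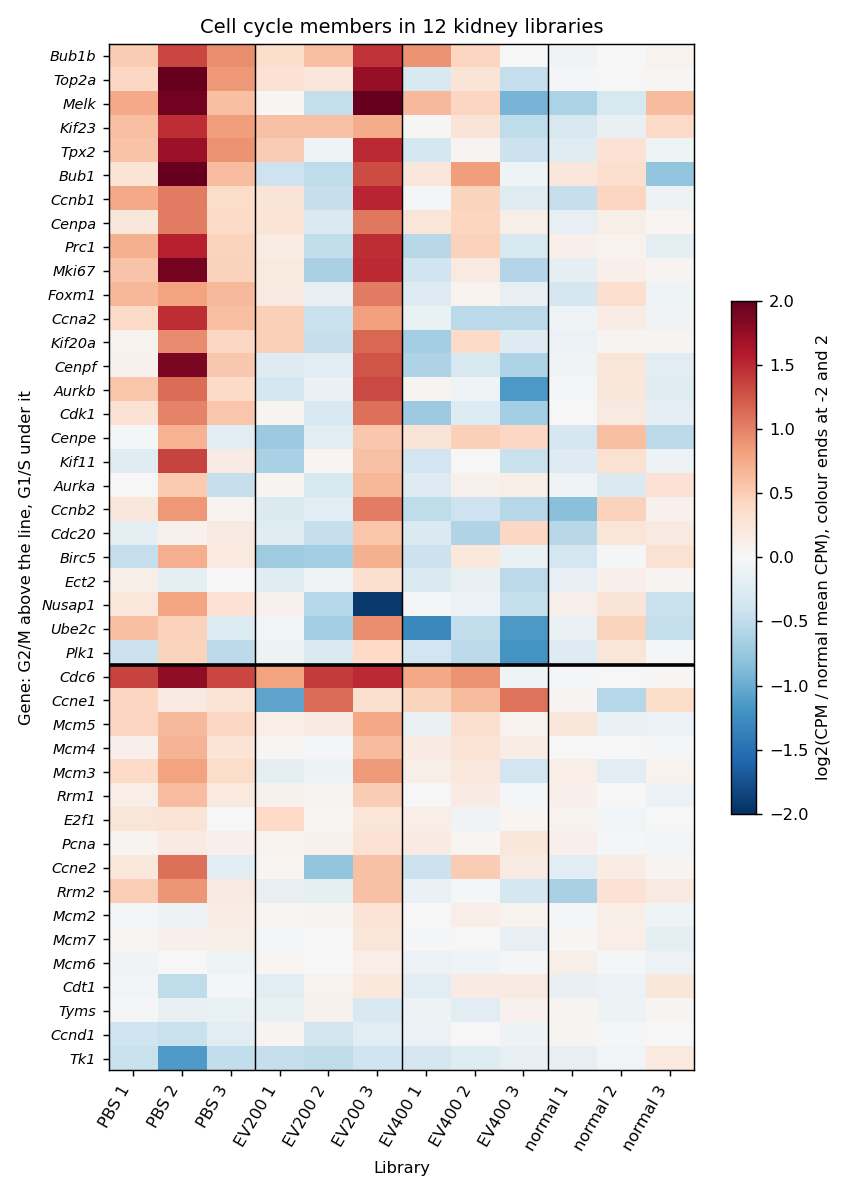
Log2 ratio of each gene's CPM to its mean in normal kidneys, with 1 row per gene, G2/M genes above the line and G1/S genes below it, and 1 column per library in the order PBS, EV200, EV400 and normal; colours end at -2 and 2. The columns of PBS 2 and EV200 3 hold the highest values for most G2/M genes, and Nusap1 is low in EV200 3.

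One or the other of these libraries was the highest of all 12 for each G2/M gene, PBS 2 for 13 and EV200 3 for 13. Over all genes tested, PBS 2 was the highest library for 25% and the lowest for 26.4%, and EV200 3 was the highest for 10%. PBS 2 and EV200 3 were the 2 highest libraries for 20 of 26 G2/M genes (76.9%), for 7 of 17 G1/S genes (41.2%) and for 15.5% of all genes tested. Nusap1, which bundles spindle microtubules, went the other way in EV200 3. Its levels were 4.37, 6.51 and 4.57 CPM in PBS libraries 1 to 3, 4, 2.53 and 0.986 CPM in EV200, 3.71, 3.46 and 2.71 CPM in EV400 and 4.03, 4.5 and 2.76 CPM in normal. EV200 3 therefore held the highest or second highest level for most mitotic genes and the lowest level for Nusap1, at 57 reads. Oip5, a centromere gene whose exons overlap those of Nusap1 on the opposite strand, had 0.657 CPM in EV200 3 and 0.56 to 1.55 CPM in the other libraries.

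G1/S genes were close to level. Their median ratio to the normal mean lay between 0.10 and 0.18 on the log2 scale in PBS libraries, 0.03 and 0.31 in EV200, -0.03 and 0.13 in EV400 and -0.04 and 0.05 in normal. The spread within a group differed in the same way. The highest library of a group exceeded the lowest by a median factor of 1.85, 2.66, 1.58 and 1.46 over G2/M genes in PBS, EV200, EV400 and normal kidneys. Over G1/S genes the factor was 1.2, 1.35, 1.15 and 1.17 in the same order. The widest G2/M gene was Melk, for a mitotic kinase, with 0.312, 0.222 and 1.4 CPM in the EV200 libraries.

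**Figure D2:**
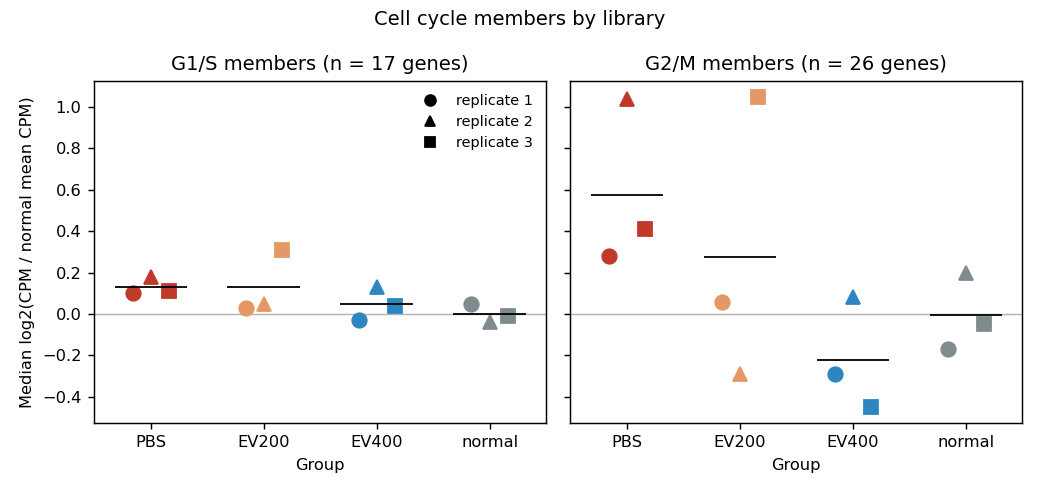
Median over 17 G1/S genes and over 26 G2/M genes of the log2 ratio of CPM to the normal mean, with 1 point per library, its shape giving the replicate, a line at the mean of each group, and the groups in the order PBS, EV200, EV400 and normal. G2/M medians spread from -0.45 in EV400 3 to 1.05 in EV200 3, whereas G1/S medians stay between -0.04 and 0.31.

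Several markers of other cells moved with PBS 2 and EV200 3. The 12 macrophage markers, all detected in every library, summed to 367.2 to 732.3 CPM in PBS, 210 to 639.7 in EV200, 142.3 to 310.2 in EV400 and 146.9 to 175.5 in normal kidneys, with PBS 2 and EV200 3 at the top of their groups. The 12 injured tubule markers, of which Krt20 was at 0 in normal 3, summed to 1451 to 2032 CPM in PBS, 1145 to 2320 in EV200, 894.9 to 1214 in EV400 and 702.4 to 810.2 in normal. The same libraries were again highest, with 2032 CPM in PBS 2 and 2320 CPM in EV200 3. Markers of fibroblasts and pericytes, 9 genes and none at 0, summed to 242.4 to 677.3 CPM in PBS, 166.8 to 423 in EV200, 120.7 to 251.1 in EV400 and 168.1 to 174.9 in normal. The 10 T and natural killer cell markers summed to 9.799 to 15.61 CPM in PBS, 5.546 to 15.07 in EV200, 5.517 to 8.871 in EV400 and 4.235 to 7.274 in normal, with Gzmb or Foxp3 at 0 in 5 libraries. Proximal tubule markers went the other way, at 27370 to 35760 CPM in PBS, 30630 to 39440 in EV200, 38540 to 46800 in EV400 and 43300 to 46340 in normal. The 6 B and plasma cell markers summed to 37.35 to 213.3 CPM in PBS, with the highest value in PBS 2, 32.23 to 93.21 in EV200, 46.29 to 66.32 in EV400 and 11.48 to 46.41 in normal. The 8 urothelium markers summed to 10.96 to 27.75 CPM in PBS, 2.871 to 31.19 in EV200, 2.62 to 8.011 in EV400 and 1.953 to 3.924 in normal, and up to 3 of them were at 0 in EV200, EV400 and normal libraries. The 8 erythroid markers were lowest in PBS, at 334.7 to 515.1 CPM, and summed to 608.5 to 939.3 in EV200, 754.6 to 1208 in EV400 and 808.3 to 983.8 in normal. The 7 endothelial markers overlapped in all groups, at 364.4 to 471.5 CPM. The part of these cells in the G2/M levels was not tested.

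The regulatory words of both programmes were read in the RefSeq promoter windows of 300 bases, from 250 bases before to 50 bases after an annotated start site, in build GRCm38.p6. A window was found for 35 of 43 members, 14 G1/S and 21 G2/M genes. For 7 of the 35, Cdc6 among them, a window's start site lay more than 50 bases inside the gene as RefSeq delimits it. Both strands were searched for the cell cycle homology region (TTTGAA or TTTAAA) and the CCAAT box (CCAAT), which are known from promoters of mitotic genes, and for the E2F words TTTCCCGC, TTTCGCGC, TTTGCCGC and TTTGGCGC. Overlapping matches were each counted, and a gene with several windows was counted if any of them matched. The cell cycle homology region was found in 18 of 21 G2/M windows (85.7%), in 5 of 14 G1/S windows (35.7%) and in 30.6% of the 27025 genes of the table. It stood together with a CCAAT box in 17 of 21 G2/M genes (81%), in 3 of 14 G1/S genes (21.4%) and in 13.4% of all genes. A CCAAT box, with or without it, was found in 18 of 21 G2/M genes (85.7%), in 8 of 14 G1/S genes (57.1%) and in 41.1% of all genes. An E2F word was found in 6 of 14 G1/S genes (42.9%: Mcm3, Mcm5, Mcm6, Mcm7, Cdc6 and Cdt1), in 1 of 21 G2/M genes (4.76%: Cdk1) and in 2.6% of all genes. These matches describe the letters of the windows and not binding.

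**Figure D3:**
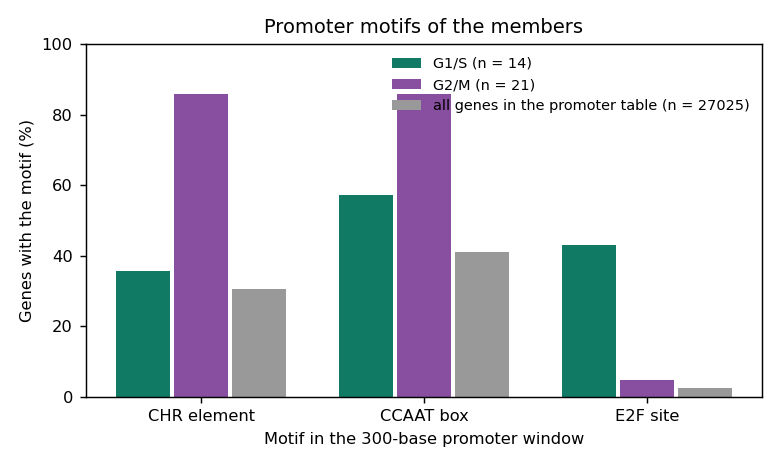
Percent of genes with each motif in the RefSeq promoter window of 300 bases, for 21 G2/M genes, 14 G1/S genes and all 27025 genes of the table. The cell cycle homology region and the CCAAT box are each found in 85.7% of G2/M genes, against 35.7% and 57.1% of G1/S genes. The E2F words are found in 42.9% of G1/S genes and 4.76% of G2/M genes.

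The windows of 5 members are shown because their genes carry the comparisons that follow: Cdc6 and Mcm5 of the licensing machinery, and Top2a, Kif23 and Cdk1 of mitosis. Capitals mark matches to the words above on either strand, and each sequence reads 5′ to 3′ along the gene. The Cdc6 window (chr11:98907901-98908200, plus strand) holds an E2F word 138 bases before the start site on which the window is built. That site lies 442 bases inside the gene's RefSeq record, which begins at 98907709, so the whole window is downstream of the gene's first annotated base. The Mcm5 window (chr8:75109259-75109558, plus strand) holds E2F words on both strands at -153 and -149, which overlap. It also has 3 CCAAT boxes and a cell cycle homology region at -221, and so holds all 3 kinds of word. Top2a (chr11:99024140-99024439, minus strand) has 6 CCAAT boxes and a cell cycle homology region at -23 and at -179. Kif23 (chr9:61946750-61947049, minus strand) has 1 of each, at -7 and 3, and Cdk1 (chr10:69352863-69353162, minus strand) also holds all 3 kinds of word.
Cdc6: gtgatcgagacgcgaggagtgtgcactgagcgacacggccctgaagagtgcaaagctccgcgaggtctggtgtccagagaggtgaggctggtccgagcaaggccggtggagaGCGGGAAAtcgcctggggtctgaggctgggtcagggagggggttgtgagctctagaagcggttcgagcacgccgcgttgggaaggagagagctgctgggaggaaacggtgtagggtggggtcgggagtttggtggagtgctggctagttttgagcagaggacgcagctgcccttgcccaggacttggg
Mcm5: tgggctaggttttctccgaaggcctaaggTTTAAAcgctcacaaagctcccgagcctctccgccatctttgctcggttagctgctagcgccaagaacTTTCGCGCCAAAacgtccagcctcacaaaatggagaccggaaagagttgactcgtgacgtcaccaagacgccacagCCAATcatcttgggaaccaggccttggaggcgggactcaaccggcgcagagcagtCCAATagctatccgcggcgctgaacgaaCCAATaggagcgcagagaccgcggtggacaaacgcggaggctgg
Top2a: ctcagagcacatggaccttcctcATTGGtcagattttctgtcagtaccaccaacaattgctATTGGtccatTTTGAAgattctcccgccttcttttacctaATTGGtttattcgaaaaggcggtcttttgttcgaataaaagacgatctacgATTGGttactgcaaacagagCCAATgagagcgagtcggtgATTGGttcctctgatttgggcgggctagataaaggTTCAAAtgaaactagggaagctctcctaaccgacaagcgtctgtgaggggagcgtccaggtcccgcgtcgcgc
Kif23: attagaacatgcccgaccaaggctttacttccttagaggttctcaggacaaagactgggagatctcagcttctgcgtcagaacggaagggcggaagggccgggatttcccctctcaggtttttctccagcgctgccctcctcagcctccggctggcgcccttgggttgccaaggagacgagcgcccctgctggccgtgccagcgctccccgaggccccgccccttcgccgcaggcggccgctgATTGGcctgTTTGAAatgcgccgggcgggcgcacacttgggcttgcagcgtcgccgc
Cdk1: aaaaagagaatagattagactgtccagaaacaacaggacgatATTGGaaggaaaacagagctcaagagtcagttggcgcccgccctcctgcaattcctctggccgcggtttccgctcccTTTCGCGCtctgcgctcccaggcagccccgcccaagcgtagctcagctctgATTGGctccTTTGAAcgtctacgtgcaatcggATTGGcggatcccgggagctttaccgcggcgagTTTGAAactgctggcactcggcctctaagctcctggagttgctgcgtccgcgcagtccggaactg

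PBS kidneys were compared with normal kidneys to ask how these genes differ after the cisplatin course and the injections together. Among 43 members, Cdc6 rose and no other member passed the threshold of an adjusted p under 0.05 by edgeR, against 2.74% of all genes tested (514 of 18730), 1.84% in the higher direction. DESeq2 called 7 members and limma-voom 11, as given further on. G2/M genes leaned upward: 24 of 26 had a log2 fold change above 0, with a median of 0.67 and a range of -0.09 to 1.29. Of the 26, edgeR called none, DESeq2 4 and limma-voom 6, against 2.74%, 16.3% and 32.9% of all genes. G1/S genes were mixed, 12 above and 5 below 0, with a median of 0.18 and a range of -0.66 to 1.50. Over all genes tested the median was 0.00, and 50.3% lay above 0. All 3 PBS libraries lay above all 3 normal libraries for 12 of 26 G2/M genes and 5 of 17 G1/S genes, against 20.3% of all genes. All 3 lay below for Tk1 and Ccnd1 and for 20% of all genes. An unadjusted p under 0.05 with a positive log2 fold change was found for 7 of 26 G2/M genes, 3 of 17 G1/S genes and 17% of all genes, and with a negative one for Tk1 and Ccnd1 and 12.8% of all genes. The 12 G2/M genes without overlap were Mki67, Top2a, Ccna2, Cdk1, Aurkb, Bub1b, Cenpa, Kif20a, Kif23, Tpx2, Prc1 and Foxm1.

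**Figure D4:**
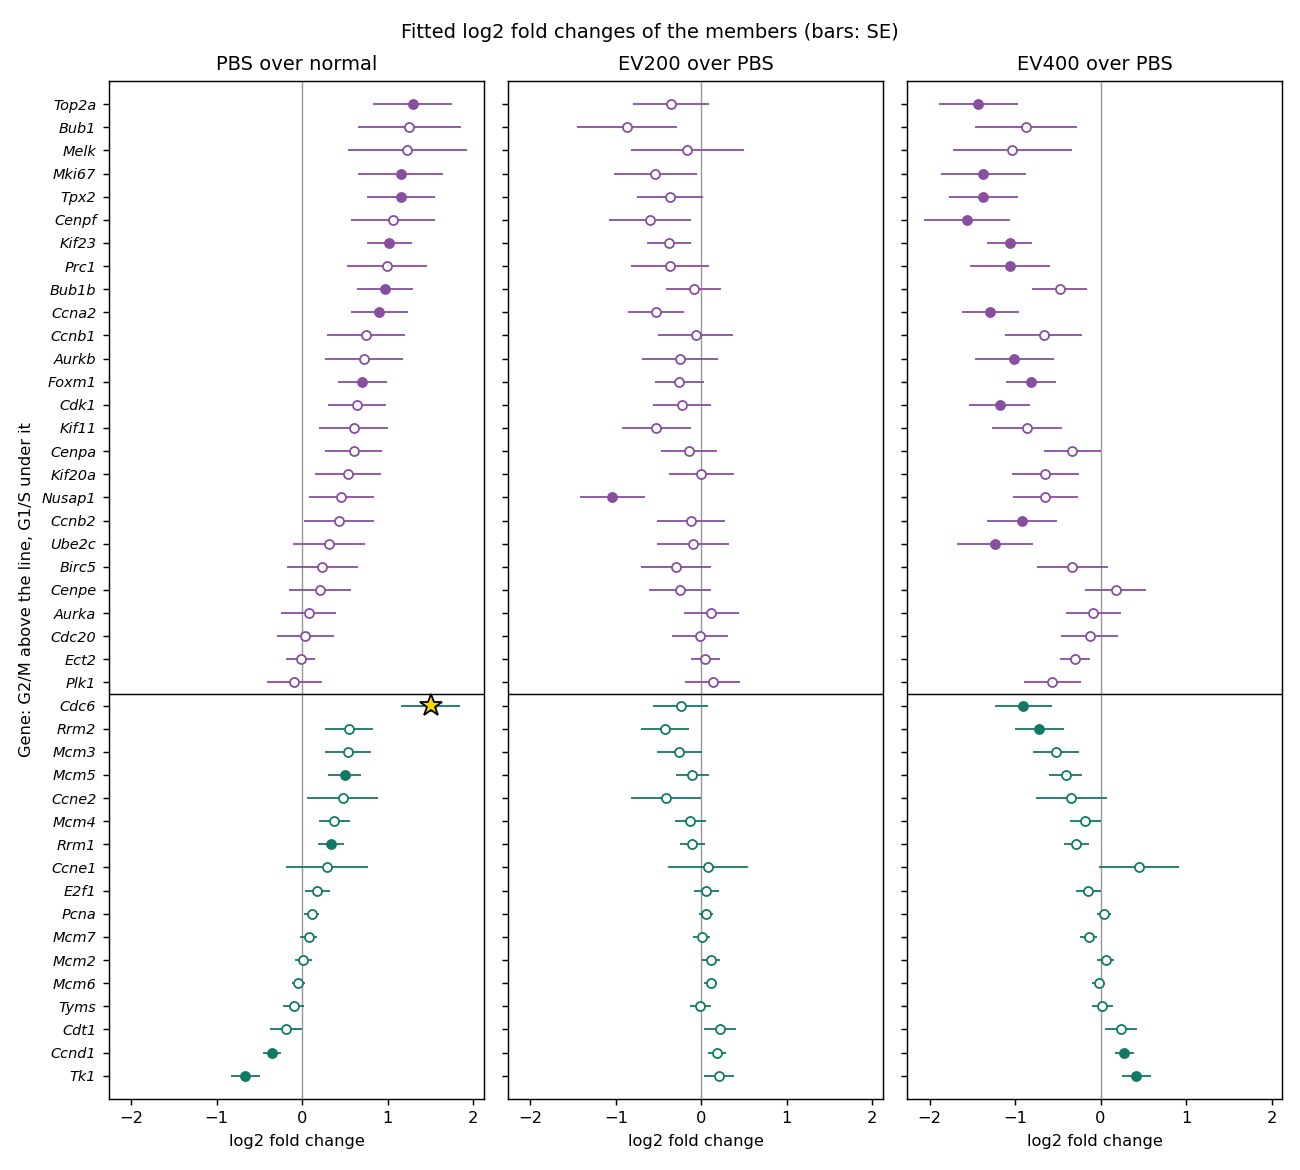
Log2 fold change with its SE for every member in PBS over normal, EV200 over PBS and EV400 over PBS, with G2/M genes above the line; filled points have an unadjusted p under 0.05 and the star marks an adjusted p under 0.05 (edgeR). Points of G2/M genes lie mostly right of 0 in PBS over normal and left of 0 in EV400 over PBS, and the star is at Cdc6 in PBS over normal.

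The licensing genes split. Cdc6 had 0.622, 0.837 and 0.62 CPM in PBS libraries 1 to 3, against 0.239, 0.246 and 0.249 CPM in normal libraries 1 to 3. The groups did not overlap, and each normal library rested on 12 reads. The rise was 2.82-fold (log2 fold change 1.50, SE 0.343, adjusted p = 0.0471, from edgeR's quasi-likelihood test and adjusted by Benjamini-Hochberg over all genes tested, as are all adjusted p given with edgeR's name). That call was close to the threshold. The adjusted p was 0.156 without PBS 2, 0.07 without PBS 3, 0.136, 0.158 and 0.151 without normal 1, 2 and 3, 0.0586 without EV200 2, and 0.0698 and 0.0623 without EV400 1 and 2, while the log2 fold change stayed between 1.34 and 1.57 (edgeR). With the replicate number as a block the adjusted p was 0.0896, and with no filter on low counts it was 0.051 (edgeR).

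Of the 6 subunits of the MCM helicase, which unwinds DNA at the replication fork, Mcm3, Mcm4 and Mcm5 had PBS libraries above all normal libraries. Mcm5 had 6.13, 7.09 and 6.04 CPM in PBS, against 5.32, 4.15 and 4.17 CPM in normal kidneys (log2 fold change 0.50, SE 0.193, adjusted p = 0.117, edgeR). Mcm3 and Mcm4 had log2 fold changes of 0.53 (SE 0.268) and 0.37 (SE 0.184). Mcm2, Mcm6 and Mcm7 stayed within overlapping ranges, with log2 fold changes of 0.01 (SE 0.103), -0.05 (SE 0.0759) and 0.08 (SE 0.0994). Mcm2 had 12.4, 11.8 and 14.1 CPM in PBS, against 12.3, 13.8 and 11.9 CPM in normal kidneys. Cdt1, the partner of Cdc6 in licensing, had a log2 fold change of -0.19 (SE 0.186).

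Pcna, the sliding clamp of DNA polymerase, is often read as an S phase marker. It had 28.8, 30.8 and 29.6 CPM in PBS, against 29.5, 26.8 and 26.5 CPM in normal kidneys (log2 fold change 0.11, SE 0.0848, adjusted p = 0.408, edgeR). The groups overlapped through normal 1. The ribonucleotide reductase genes Rrm1 and Rrm2, which supply deoxynucleotides, had log2 fold changes of 0.33 (SE 0.151) and 0.55 (SE 0.283). Tyms, for thymidylate synthase, had -0.10 (SE 0.123).

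Tk1, for the thymidine salvage kinase of S phase, ran opposite to most members. It had 5.26, 3.26 and 5.11 CPM in PBS, against 6.42, 6.94 and 8.22 CPM in normal kidneys. PBS 2 had the lowest Tk1 level of all 12 libraries, as it did for 26.4% of all genes tested. EV200 3, whose G2/M median was as high, had 5.47 CPM, the highest Tk1 level of its group. The log2 fold change was -0.66 (SE 0.173) with an adjusted p of 0.0548 (edgeR), just short of the threshold. Ccnd1, whose product cyclin D1 answers mitogens, had 194, 188 and 223 CPM in PBS, against 267, 250 and 255 CPM in normal kidneys. The groups did not overlap (log2 fold change -0.35, SE 0.107, adjusted p = 0.0706, edgeR). Its exons share 23.4% of their bases with the opposite-strand gene LTO1, and no source used here says whether counting used strand.

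The other regulators of G1 exit had no adjusted p under 0.05 by edgeR, DESeq2 or limma-voom. E2f1, an activating E2F factor, had 3.44, 3.51 and 2.95 CPM in PBS, against 3.07, 2.79 and 2.89 CPM in normal kidneys, with overlapping groups (log2 fold change 0.18, SE 0.147, adjusted p = 0.433, edgeR). Ccne1 and Ccne2, for the E cyclins that drive S phase entry, had log2 fold changes of 0.29 (SE 0.481) and 0.47 (SE 0.414).

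Among the mitotic genes, Kif23, a kinesin of the central spindle that is needed for cytokinesis, came closest to the threshold. It had 4.29, 7.9 and 5.04 CPM in PBS, against 2.27, 2.55 and 3.67 CPM in normal kidneys. The groups did not overlap (log2 fold change 1.02, SE 0.263, adjusted p = 0.0545, edgeR). Tpx2, which activates Aurora A and nucleates spindle microtubules, had 1.57, 3.49 and 1.98 CPM in PBS, against 0.897, 1.29 and 0.996 CPM in normal kidneys (log2 fold change 1.15, SE 0.398, adjusted p = 0.0921, edgeR). Every PBS library was again above every normal library, and without PBS 2 the log2 fold change of Tpx2 was 0.75. Other spindle genes ranged from -0.02 (Ect2, needed for cytokinesis) over 0.46 (Nusap1), 0.53 (Kif20a) and 0.60 (Kif11) to 0.99 (Prc1, a bundler of spindle midzone microtubules) in log2 fold change.

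Mki67 encodes Ki-67, the surface coat of mitotic chromosomes and the usual proliferation marker. It had 6.71, 17.1 and 6.23 CPM in PBS, against 4.01, 4.84 and 4.69 CPM in normal kidneys. PBS 2 was far above PBS 1 and PBS 3, which lay above the normal range (log2 fold change 1.15, SE 0.494, adjusted p = 0.147, edgeR). Without PBS 2 the log2 fold change was 0.53. Top2a, the topoisomerase that untangles sister chromatids, had 3.23, 10 and 4.44 CPM in PBS, against 2.35, 2.44 and 2.47 CPM in normal kidneys (log2 fold change 1.29, SE 0.457, adjusted p = 0.0959, edgeR). Its log2 fold change without PBS 2 was 0.68.

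For the cyclins and the kinase of mitotic entry PBS 2 was again the highest PBS library. Ccna2, for cyclin A2 of S phase and G2, had 2.65, 5.62 and 3.06 CPM in PBS, against 1.91, 2.24 and 1.93 CPM in normal kidneys (log2 fold change 0.90, SE 0.33, adjusted p = 0.103, edgeR), and its log2 fold change was 0.51 without PBS 2. Cdk1, the mitotic kinase, had 1.31, 2.14 and 1.57 CPM in PBS, against 1.08, 1.21 and 0.934 CPM in normal kidneys (log2 fold change 0.64, SE 0.344, adjusted p = 0.228, edgeR). For both genes the groups did not overlap. Ccnb1, for the cyclin B1 partner of Cdk1, had 1.16, 1.42 and 0.887 CPM in PBS, against 0.498, 0.924 and 0.644 CPM in normal kidneys, where PBS 3 fell inside the normal range (log2 fold change 0.75, SE 0.453, adjusted p = 0.283, edgeR). Foxm1, the transcription factor of the G2/M programme, had 2.22, 2.44 and 2.19 CPM in PBS, against 1.12, 1.77 and 1.33 CPM in normal kidneys (log2 fold change 0.70, SE 0.289, adjusted p = 0.135, edgeR).

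**Figure D5:**
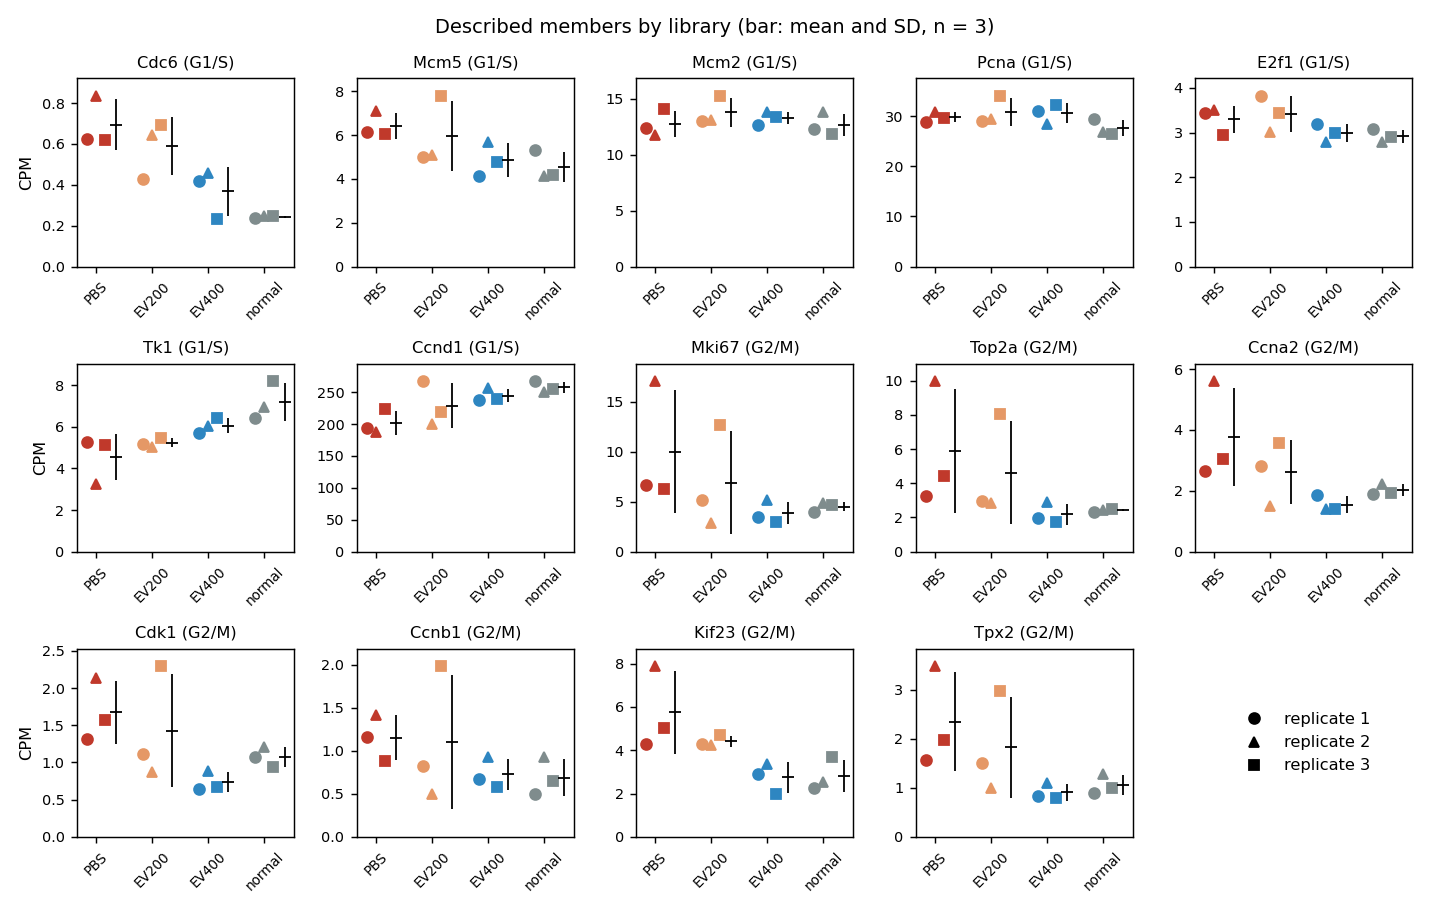
CPM in each library of the members described by library, with 1 point per library and the groups in the order PBS, EV200, EV400 and normal; the black mark and bar beside each group are its mean and SD (n = 3). PBS 2 and EV200 3 are the top points of Mki67, Top2a, Cdk1 and Tpx2, whereas Pcna, Mcm2 and E2f1 overlap in all groups.

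Mitotic kinases, checkpoint and degradation genes were uneven. The spindle checkpoint kinase genes Bub1 and Bub1b had log2 fold changes of 1.25 (SE 0.601) and 0.97 (SE 0.328). Aurkb, for the kinase of the chromosomal passenger complex, had 0.72 (SE 0.454), whereas Aurka and Plk1, for kinases of centrosome maturation and mitotic entry, had 0.07 (SE 0.324) and -0.09 (SE 0.324). Cdc20 and Ube2c, which serve the anaphase-promoting complex, had 0.03 (SE 0.333) and 0.31 (SE 0.425). The centromere genes Cenpa, Cenpe and Cenpf had 0.60 (SE 0.336), 0.21 (SE 0.362) and 1.06 (SE 0.489), and Birc5, for survivin, had 0.24 (SE 0.411). Cyclin B2 (Ccnb2) and Melk had 0.43 (SE 0.405) and 1.23 (SE 0.698). None of these 13 genes passed the threshold by edgeR, and Bub1b passed it by DESeq2 (adjusted p = 0.0461) and by limma-voom (adjusted p = 0.00726).

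The class medians depended on PBS 2. Without that library the G2/M median was 0.39 and the G1/S median 0.09 in PBS over normal kidneys. With PBS 2 and EV200 3 both left out, an alternative chosen after seeing the data, they were 0.38 and 0.09. No member was then called by edgeR, against 1121 of the 18706 genes tested.

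EV400 kidneys were compared with PBS kidneys to ask whether the members differ at the higher vesicle dose. No member passed the threshold by edgeR, against 0.0801% of all genes (15 of 18730), and 16 members had an unadjusted p under 0.05. By direction, 25 of 26 G2/M genes lay below 0 with a median log2 fold change of -0.87 and a range of -1.56 to 0.18, where Cenpe was the exception. Of the G1/S genes 10 lay below and 7 above 0, with a median of -0.14. Over all genes the median was -0.02 and 47.1% lay above 0. An unadjusted p under 0.05 with a negative log2 fold change was found for 12 of 26 G2/M genes, 2 of 17 G1/S genes and 12.6% of all genes, and with a positive one for Tk1 and Ccnd1 and 10.9% of all genes. All 3 EV400 libraries lay below all 3 PBS libraries for 12 G2/M and 5 G1/S genes and for 13.8% of all genes. They lay above for Tk1, Ccne1 and Ccnd1 and for 12.2% of all genes. The PBS libraries are the same ones as in the comparison with normal kidneys, PBS 2 included.

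The smallest p belonged to Kif23, at 2.88, 3.38 and 1.99 CPM in EV400, against 4.29, 7.9 and 5.04 CPM in PBS (log2 fold change -1.06, SE 0.263, adjusted p = 0.125, edgeR). Ccna2 had 1.86, 1.39 and 1.39 CPM in EV400, against 2.65, 5.62 and 3.06 CPM in PBS (log2 fold change -1.29, SE 0.336, adjusted p = 0.128, edgeR). In both cases the EV400 libraries lay below all PBS libraries. Tpx2 had 0.835, 1.1 and 0.788 CPM in EV400, against 1.57, 3.49 and 1.98 CPM in PBS (log2 fold change -1.37, SE 0.403, adjusted p = 0.147, edgeR). Cdk1 had 0.647, 0.891 and 0.672 CPM in EV400, against 1.31, 2.14 and 1.57 CPM in PBS (log2 fold change -1.18, SE 0.353, adjusted p = 0.148, edgeR). These were also without overlap.

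Mki67 had 3.44, 5.14 and 3.01 CPM in EV400, against 6.71, 17.1 and 6.23 CPM in PBS (log2 fold change -1.37, SE 0.499, adjusted p = 0.168, edgeR). Top2a had 1.96, 2.88 and 1.74 CPM in EV400, against 3.23, 10 and 4.44 CPM in PBS (log2 fold change -1.43, SE 0.46, adjusted p = 0.154, edgeR). Neither gene's groups overlapped, and without PBS 2 the log2 fold changes were -0.74 for Mki67 and -0.80 for Top2a. Cenpf had the lowest log2 fold change at -1.56 (SE 0.502), and Ube2c, Prc1 and Aurkb had -1.23, -1.06 and -1.01. Ccnb1 overlapped, with 0.668, 0.933 and 0.58 CPM in EV400, against 1.16, 1.42 and 0.887 CPM in PBS (log2 fold change -0.67, SE 0.453).

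Among G1/S genes Cdc6 had 0.417, 0.456 and 0.232 CPM in EV400, against 0.622, 0.837 and 0.62 CPM in PBS (log2 fold change -0.91, SE 0.333, adjusted p = 0.169, edgeR). Tk1 had 5.7, 6.05 and 6.44 CPM in EV400, against 5.26, 3.26 and 5.11 CPM in PBS, and Ccnd1 had 238, 256 and 240 CPM in EV400, against 194, 188 and 223 CPM in PBS. For these 3 genes no EV400 library overlapped a PBS library. The log2 fold changes of Tk1 and Ccnd1 were 0.42 (SE 0.173) and 0.28 (SE 0.107). Mcm5 had -0.41 (SE 0.193) and Rrm2 -0.72 (SE 0.285), while Pcna, Mcm2 and E2f1 had 0.04, 0.06 and -0.14.

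Other count models drew the line elsewhere. DESeq2 called 6 members lower in EV400 than in PBS kidneys, namely Top2a, Ccna2, Cdk1, Cenpf, Kif23 and Tpx2, and called 5.62% of all genes with an adjusted p. For limma-voom with quality weights, which gave PBS 2 a weight of 0.163, the count was 8, with Mcm5 and Foxm1 added to those 6, against 14.6% of all genes. For PBS over normal, DESeq2 called 7 members, against 16.3% of all genes, and limma-voom 11, against 32.9%. Both included Cdc6, Tk1, Ccnd1, Top2a, Bub1b, Kif23 and Tpx2, and limma-voom added Mcm4, Mcm5, Ccna2 and Foxm1. Without PBS 2 the G2/M median of EV400 over PBS was -0.48.

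At 200 µg the place of the mitotic genes relative to PBS differed between libraries. Their median ratio to the normal mean was 1.04-fold in EV200 1 and 0.815-fold in EV200 2, below the 1.21-fold to 2.05-fold of the PBS libraries. In EV200 3 it was 2.06-fold, level with the 2.05-fold of PBS 2. No member was called in EV200 over PBS kidneys by edgeR or DESeq2, against 0.016% of all genes by edgeR (3 of 18730) and 0.218% by DESeq2, and limma-voom called Ccna2 and Nusap1, against 8.8% of all genes. The lowest unadjusted p was 0.0191, for Nusap1 (log2 fold change -1.04, SE 0.384, adjusted p = 0.657, edgeR), the 1 member under 0.05 in either direction, against 3.08% of all genes in the lower one. The median log2 fold change was -0.25 over G2/M genes, 23 of 26 below 0, and 0.00 over G1/S genes, while 49.5% of all genes lay above 0. The G2/M median was 0.06 without PBS 2, -0.05 and -0.02 without EV200 1 and EV200 2, and -0.72 without EV200 3. Of these fits, the one without PBS 2 turned its sign, and the others changed its size. Mki67 had 5.15, 2.88 and 12.7 CPM in EV200, against 6.71, 17.1 and 6.23 CPM in PBS, and Top2a had 2.97, 2.84 and 8.08 CPM in EV200, against 3.23, 10 and 4.44 CPM in PBS. In both groups 1 library towered over the other two. Kif23 was steadier, with 4.27, 4.25 and 4.72 CPM in EV200, and Cdc6 had 0.427, 0.646 and 0.692 CPM there.

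Set against normal kidneys, neither vesicle group had a called member by edgeR, against 0.0694% of all genes for EV200 (13 of 18730) and 0% for EV400 (0 of 18730). At an unadjusted p under 0.05 there were 3 higher members in EV200 (Cdc6, Bub1b and Kif23), against 8.86% of all genes, and Tk1 lower, against 4.32%. In EV400 there were 0, against 3.31% of all genes higher and 3.67% lower. DESeq2 called no member in either, against 2.37% of all genes for EV200 and 0.104% for EV400. Limma-voom called no member in EV400, against 7.91% of all genes. In EV200 over normal the median log2 fold change was 0.43 over G2/M genes and 0.13 over G1/S genes, and without EV200 3 these were -0.16 and 0.00, while 50.8% of all genes lay above 0. EV200 libraries lay above all normal libraries for Cdc6 (log2 fold change 1.26, SE 0.345), Bub1b (0.88), Kif23 (0.64) and Top2a (0.93) and for 11.9% of all genes, and below for Tk1 (-0.46) and for 12.9% of all genes. Limma-voom called Tk1 and Cdc6 there, against 5.86% of all genes. In EV400 over normal the medians were -0.13 over G2/M genes, 20 of 26 below 0, and 0.05 over G1/S genes, while 50.9% of all genes lay above 0. The EV400 libraries lay below all normal libraries for Ube2c (-0.92), Plk1 (-0.66), Cdk1 (-0.54), Cenpf (-0.51) and Ccna2 (-0.39), 5 of 26 G2/M genes against 10.6% of all genes. They lay above for Ccne1 (0.74), Cenpa (0.27) and Mcm4 (0.19), against 8.28% of all genes.

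The doses were compared directly. No member was called in EV400 over EV200 kidneys by edgeR, against 0.00534% of all genes (1 of 18730), and 6 G2/M genes had an unadjusted p under 0.05: Cdk1, Kif23, Ube2c, Tpx2, Top2a and Ccna2, with log2 fold changes of -0.95, -0.68, -1.14, -1.01, -1.08 and -0.76, against 3.81% of all genes in that direction. DESeq2 and limma-voom called none, against 0.0871% and 0.774% of all genes. The G2/M median was -0.66 and the G1/S median -0.06, while 46.3% of all genes lay above 0. Without EV200 3 the G2/M median was -0.06. In a joint test of any difference among the 4 groups no member was called by edgeR, against 0.0641% of all genes (12 of 18730). At an unadjusted p under 0.05 the joint test had 10 members, against 19.7% of all genes. DESeq2 called 6, against 9.07%, and limma-voom 12, against 35.4%.

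Further genes of the pathway came from standard phase lists and gene families. Of 28 other S phase genes, 25 had log2 fold changes above 0 in PBS over normal kidneys, with a median of 0.34. None was called by edgeR, and 7 higher and 1 lower gene had an unadjusted p under 0.05, against 17% and 12.8% of all genes tested, of which 50.3% lay above 0. The smallest p values belonged to Pola1, for the catalytic subunit of DNA polymerase alpha (0.54, adjusted p = 0.0635, edgeR), Hells, a chromatin remodeler (1.20, adjusted p = 0.0957), and Prim1, a primase subunit (0.44, adjusted p = 0.105). Of 27 other mitotic genes tested, 23 lay above 0 with a median of 0.45. By edgeR 1 rose and 1 fell, against 2.74% of all genes called. At an unadjusted p under 0.05 there were 3 higher genes and 1 lower gene, against 17% and 12.8% of all genes. Spag5, for a spindle and kinetochore protein, rose to 3.8 ± 0.711 CPM in PBS, against 1.6 ± 0.234 CPM in normal kidneys (SD, n = 3; log2 fold change 1.24, SE 0.24, adjusted p = 0.0405, edgeR). Kif20b, for a kinesin of cytokinesis, fell to 22.9 ± 3.53 CPM in PBS, against 34 ± 1.1 CPM in normal kidneys (SD, n = 3; log2 fold change -0.58, SE 0.118, adjusted p = 0.0429, edgeR).

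Of 7 genes for inhibitors of cyclin-dependent kinases, 5 had log2 fold changes above 0 in PBS over normal kidneys, against 50.3% of all genes. Their median was 0.68. EdgeR called 1 of them, against 2.74% of all genes. At an unadjusted p under 0.05 there were 5 higher and 0 lower, against 17% and 12.8% of all genes. Cdkn2b, for the INK4 inhibitor p15 of Cdk4 and Cdk6, rose to 2.07 ± 1.02 CPM in PBS, against 0.209 ± 0.114 CPM in normal kidneys (SD, n = 3; log2 fold change 3.29, SE 0.559, adjusted p = 0.0326, edgeR). Cdkn1a, for the p53 target p21, had 9.32 ± 3.44 CPM in PBS, against 3.69 ± 0.349 CPM in normal kidneys (SD, n = 3; log2 fold change 1.34, adjusted p = 0.0671, edgeR). Cdkn1c, for p57, had 20.9 ± 3.29 CPM in PBS, against 13 ± 0.885 CPM in normal kidneys (SD, n = 3; adjusted p = 0.0584, edgeR). Cdkn2a was at 0 in all EV400 and normal libraries, in EV200 1 and in PBS 1.

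The calls of Spag5, Kif20b and Cdkn2b were near the threshold as well. Leaving out 1 library moved the adjusted p to between 0.00869 and 0.158 for Spag5, 0.0109 and 0.158 for Kif20b and 0.00728 and 0.142 for Cdkn2b (edgeR). Each call was lost without any 1 of the normal libraries, without PBS 2, and without EV400 1 or EV400 2. Over all genes tested, 0 were called without any 1 of the normal libraries and 1 without PBS 2. Spag5 and Kif20b also lost theirs without PBS 3, and Kif20b without EV200 2. With the replicate block all 3 had an adjusted p of 0.0811, and the log2 fold changes kept their sign in all of these fits.

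The 13 other G1 cyclins, kinases, pocket proteins and E2F factors had a median of 0.18 with none called by edgeR and 4 higher and 0 lower genes at an unadjusted p under 0.05, against 17% and 12.8% of all genes tested, led by Rb1 (0.35), Ccnd2 (0.61) and Cdk6 (0.36). The 8 checkpoint kinases and CDC25 phosphatases had a median of 0.28 with none called by edgeR and 1 higher and 1 lower gene at an unadjusted p under 0.05, against the same shares of all genes, led by Chek2 (0.39), Wee1 (-0.39) and Cdc25b (0.49). In EV400 over PBS kidneys the medians were -0.19 for S phase, -0.59 for mitosis, -0.32 for the inhibitors, -0.11 for G1 and -0.18 for the checkpoint list, and no gene was called by edgeR. Wee1, which holds Cdk1 inactive, came closest, with 19.2 ± 2.52 CPM in EV400, against 11.2 ± 2.14 CPM in PBS (SD, n = 3; log2 fold change 0.78, SE 0.14, adjusted p = 0.0737, edgeR). In EV200 over PBS kidneys the medians in the same order were -0.13, -0.07, -0.13, 0.01 and -0.11, again with no gene called by edgeR.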

How the data were processed

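Kidney RNA of 12 libraries was prepared with a stranded mRNA kit and read as pairs of 101 bases, per the labels' protocols. The submitters' processing notes name StringTie 2.1.3b, HISAT2 2.1.0, Trimmomatic 0.38 and FastQC 0.11.7, and the mouse builds GRCm38 and mm10, with no role or order. Which program counted reads, with which strand option and annotation, is not given in the sources used here. For 45777 genes the authors deposited whole-number read counts, which were tested, and TPM values, which the authors normalized per length and depth and which served only for levels between genes. The deposited FPKM values (12 columns) were not used.

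In R 4.3.3, edgeR 4.0.16 fitted 1 quasi-likelihood model over all 12 libraries, with group as its term, TMM scaling, filterByExpr at its defaults and 8 residual df. P-values were adjusted by Benjamini-Hochberg over the 18730 genes tested, and a gene was called at an adjusted p under 0.05. CPM is the count over the TMM-scaled library total. Standard errors are the log2 fold change over the square root of F. The fit was first tested on simulated counts.

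Members described by library were Mki67, Top2a, Cdk1, Ccnb1, Pcna, Mcm2, Ccnd1 and E2f1, any called member, and the 4 of each class with the smallest joint p. Foxm1, Nusap1 and Melk were added after their values were seen. From each further list up to 3 genes with the smallest p in PBS over normal are named. The members, classes, lists and markers were chosen with earlier results of these data known. Class medians are descriptions without a test. Alternatives were DESeq2 size factors, no filter or a stricter one (a mean count of 50), DESeq2 1.42.0, limma-voom (limma 3.58.1, sample weights), a block by replicate number, fits of the compared groups alone, other class assignments, and leaving out each library. Leaving out PBS 2 and EV200 3 together was chosen after seeing the data. Promoter windows came from RefSeq for GRCm38.p6, in which all 43 member identifiers matched, and exon overlaps from GENCODE vM21.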

Additional observations from a re-analysis of the deposited data

How the results depend on the processing

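Members called in PBS over normal kidneys numbered 1 by edgeR, 0 with no filter on low counts, 7 with DESeq2, 11 with limma-voom, 0 with PBS 2 and EV200 3 both left out, and 0 to 6 with 1 library left out. Calls over all genes in the same order were 514, 299, 2801, 6164 and 1121. With 1 library left out they ran from 0, without any of the normal libraries, to 2405 without EV200 3, and there was 1 without PBS 2. The stricter filter also gave 1 member among 769 genes, but removed Cdc6 and called Kif23. The replicate number as a block gave 0 members and 0 genes. Over 18 pairs of same-numbered libraries the correlation of deviations from the group means ran from -0.39 to 0.34, and was over 0.1 in 2. Deviations within a group of 3 libraries depend on each other, so these correlations cannot tell whether the numbers pair the samples. Limma-voom called 2 members in EV200 over normal, 2 in EV200 over PBS, 8 in EV400 over PBS and 12 in the joint test. DESeq2 called 6 in EV400 over PBS and 6 in the joint test, and gave no adjusted p for Cdc6, Ccne1 and Melk in EV400 over PBS. The G1/S median of PBS over normal (0.18) was 0.11 with the stricter filter, 0.11 with limma-voom, 0.09 without both libraries, 0.24 without Ccnd1, 0.24 with Ccna2 counted as G1/S, and 0.09 to 0.25 with 1 library left out. With 1 library left out, the EV200 over normal medians ran from 0.00 to 0.21 (G1/S) and -0.16 to 0.68 (G2/M), those of EV400 over PBS from -0.14 to 0.00 and -1.05 to -0.48, and the G2/M median of EV400 over EV200 from -0.89 to -0.06. Limma-voom and the loss of both libraries gave G2/M medians of -0.13 and -0.14 in EV200 over normal, -0.48 and -0.47 in EV400 over PBS, and -0.08 and -0.06 in EV400 over EV200. The G1/S median was -0.03 with limma-voom in EV400 over normal and 0.01 without both libraries in EV400 over PBS. Signs turned for small log2 fold changes. In limma-voom these were Mcm2 (-0.05) and Ccnd1 (-0.03) in EV200 over PBS, and Mcm2 (-0.08) and E2f1 (0.03) in EV400 over PBS. Without both libraries they were Mcm2 (-0.01) and Tk1 (-0.01) in EV200 over PBS. With 1 library left out, EV200 over PBS ran from -1.32 to 0.10 for Mki67, -1.03 to 0.28 for Top2a, -0.75 to 0.03 for Cdk1, -0.80 to 0.29 for Ccnb1, -0.02 to 0.10 for Pcna, -0.03 to 0.15 for E2f1, -0.35 to 0.01 for Mcm5 and -0.91 to 0.05 for Tpx2, and PBS over normal from -0.07 to 0.08 for Mcm2. The cause was not tested. The other alternatives kept direction and side of the threshold in 808 single-gene results, while 34 gained a call and 35 lost one. In 237 cases a class median moved by less than its SD between replicates, whatever its sign. In 116 cases a count of called members stayed at 0 or near its main value. Low counts limit the scarce members, with 12 Cdc6 reads in each normal library.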

Other observations

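Pseudogenes of members took few reads. Pcna-ps2 had 38 to 95 counts per library, Ccnb1-ps 0 to 5 and Tyms-ps 0, against 1277 to 2134 counts of Pcna. In GENCODE vM21, 13 of 43 members share exon bases with another gene, 11 of them with a gene on the opposite strand. The largest shares were those of Kif20a with Cdc23 (29.3% of its exon bases), Ccnd1 with LTO1 (23.4%), Ube2c with Tnnc2 (22.8%), Ccne2 with Ints8 (17.4%), Ccna2 with Exosc9 (12.5%) and Prc1 with Rccd1 (11.1%). Library PBS 3 held adipocyte markers, 7 genes that summed to 115.7 CPM there and to 22.94 to 34.45 CPM elsewhere. In PBS 3 none of them was at 0, whereas 1 to 6 were at 0 in each other library, in EV400 2 all except Fabp4. The G2/M median of PBS 3 lay between those of PBS 1 and PBS 2.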
